A study of Mus musculus with 2 samples.

Results

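The secreted WNT antagonists of the Dickkopf (DKK), secreted Frizzled-related protein (SFRP) and WIF families were followed in cultured mouse ureters after treatment with BIO, an inhibitor of the kinase GSK3 that activates canonical WNT signaling. The 10 genes Dkk1, Dkk2, Dkk3, Dkk4, Sfrp1, Sfrp2, Sfrp4, Sfrp5, Frzb and Wif1 were found by their gene name on the array, 1 probe for each, among 29875 genes on the array. After a filter on dim probes, 9 of the 10 were tested, among 21574 genes tested in all. Dkk4 was the gene that did not pass.

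All explants came from wildtype NMRI embryos at E12.5, were of undetermined sex, and were kept on transwell membranes for 18 h. The treated explants received 10 µM BIO, and the control explants received the solvent DMSO at 2 parts in 1000. Per the study's methods, each RNA sample was a pool of ureters dissected free of kidney and bladder and cultured without serum. On each of 2 arrays, 1 control pool and 1 BIO pool were hybridised together, with BIO in the red channel (AlexaFluor647) in replicate 1 and in the green channel (AlexaFluor555) in replicate 2. Since the whole organ was used, fewer cells of a type and less RNA per cell cannot be told apart. Since dye orientation and replicate change together, a difference between both arrays may belong to either, and these cannot be told apart.

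In canonical WNT signaling, a WNT protein binds a Frizzled receptor and the co-receptor LRP5 or LRP6, and β-catenin then escapes from a destruction complex that contains GSK3. The antagonists act outside the cell, upstream of GSK3. DKK1, DKK2 and DKK4 bind LRP5 and LRP6, together with the Kremen receptors, whereas DKK3 is a divergent family member that does not share this activity clearly. The SFRP proteins and FRZB, also known as SFRP3, carry a Frizzled-like cysteine-rich domain and bind WNT proteins, and WIF1 binds WNT proteins through its WIF domain.

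Sfrp2, Sfrp1 and Dkk1 had lower transcript levels in BIO than in control, and Wif1 had a higher level. To show what the array measured for these genes, the first 30 bases of each 60-base probe are given, in lower case and 5′ to 3′. The positions are those of the whole probe in the build of the files, mm9. The Sfrp2 probe, designed to NM_009144, is at chr3:83577864-83577923 on the plus strand. The Sfrp1 probe, designed to NM_013834, is at chr8:24559438-24559497 on the plus strand. The Dkk1 probe, designed to NM_010051, is at chr19:30621424-30621483 on the minus strand. The Wif1 probe, designed to NM_011915, is at chr10:120537079-120537138 on the plus strand. Whether a probe is in a coding or an untranslated part of its exon was not analysed here.
Sfrp2: tcggcatctaagtcttcaaacatttcgttg
Sfrp1: ttaaaatagtcattccggagagtcagggaa
Dkk1: tactgtgttgtaaatcctcagtgtggcact
Wif1: ggctgatatctactcttccttttaggtttt

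Across the 9 genes tested, 4 were called at an adjusted p of 0.05 by limma with Benjamini-Hochberg adjustment over all probes, of which 1 rose and 3 fell. The same 4 had an unadjusted p under 0.05. Over all genes tested, 23.9% were called, 9.13% rose and 14.8% fell. With 9 members, 1 gene more or less moves a share by far, so the counts are given as a description. Their median log2 ratio of BIO over control was -0.15, against -0.0083 for all genes tested, and the sign of the median was not the same on both arrays, at 0.04 in replicate 1 and -0.24 in replicate 2. The median size of the log2 ratio, without its sign, was 0.214 for the members and 0.185 for all genes tested. Of the 9, 7 had ratios of the same sign on both arrays, which is near the 72.9% found for all genes tested. The 5 members that were not called had mean log2 ratios between -0.21 and 0.12.

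**Figure D1:**
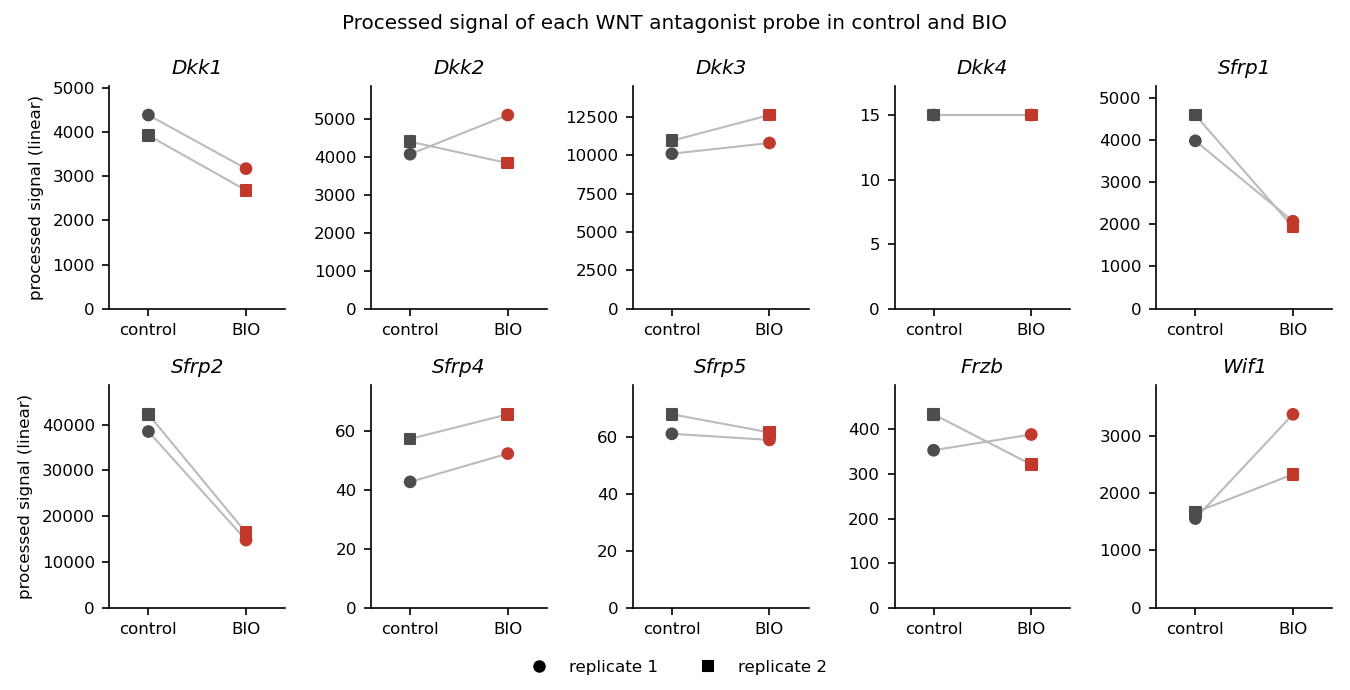
Processed signal on a linear axis from 0 for the 10 antagonist probes, with control in grey and BIO in red, replicate 1 as circles and replicate 2 as squares, and a line joining the channels of 1 array. Sfrp2, Sfrp1 and Dkk1 were lower in BIO on both arrays, and Wif1 was higher on both. Dkk2 and Frzb were higher in BIO in replicate 1 and lower in replicate 2, and Dkk4 lay at the floor of 15 in all channels.

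The largest decreases among the 9 tested members were those of Sfrp2 and Sfrp1, whereas the other tested genes of this family, Sfrp4, Sfrp5 and Frzb, were not called. For Sfrp2, the processed signal was 38505 in control and 14811 in BIO in replicate 1, and 42264 and 16419 in replicate 2. Both BIO values lay far below both control values, and the groups did not overlap. The share of all genes without overlap is not given here, so overlap is only a description of single genes. It also sets aside that each array pairs control with BIO, and groups that overlap can still move the same way on both arrays. After normalisation, the log2 ratio of replicate 1 was -1.41 and that of replicate 2 was -1.39. Their mean was -1.40 ± 0.108 (SE, n = 2), with a 95% interval of -1.65 to -1.15 and an adjusted p of 0.000129 by limma. This is a 2.64-fold lower level in BIO. Here and below, SEs and intervals come from limma, which pulls each probe's variance toward that of all probes tested. They are therefore not the spread of the 2 arrays alone. The ratio of Sfrp2 differed between both arrays by 0.0127 on the log2 scale, and 95.9% of all genes tested had a larger difference. Its 8 single spots ranged from -1.54 to -1.28 in replicate 1 and from -1.47 to -1.27 in replicate 2.

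For Sfrp1, the processed signal was 3978 in control and 2073 in BIO in replicate 1, and 4590 and 1936 in replicate 2. Control and BIO again did not overlap. The log2 ratios of -0.95 and -1.25 gave a mean of -1.10 ± 0.119 (SE, n = 2), with a 95% interval of -1.37 to -0.83 and an adjusted p of 0.000515 by limma, or a 2.14-fold lower level. The intervals of Sfrp2 and Sfrp1, neighbours in the order of the ratios, overlapped, and a difference between their ratios was not tested. With the deposited scores, a further table of the authors with 1 value per probe and array, Sfrp1 lost its call (adjusted p = 0.160 by limma). Its mean log2 ratio with these scores was -1.09. In the order of all mean log2 ratios, counted from the lowest, Sfrp2 had place 257 and Sfrp1 place 495 of 21574.

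Among the others, Sfrp4 and Sfrp5 gave dim signals, although all 4 spots of each were well above background in every channel. The processed signal of Sfrp4 was 42.7 in control and 52.2 in BIO in replicate 1, and 57.2 and 65.5 in replicate 2, so that the groups overlapped. Its mean log2 ratio was 0.10 with a 95% interval of -0.15 to 0.35 and an adjusted p of 0.566 by limma. For Sfrp5, the processed signal was 61.1 in control and 58.9 in BIO in replicate 1, and 67.9 and 61.5 in replicate 2. Here too control and BIO overlapped. The mean log2 ratio was -0.15 with a 95% interval of -0.39 to 0.10 and an adjusted p of 0.383. An offset of 50 was added to the intensities before the ratios were formed, which pulls ratios of such dim probes toward 0.

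Frzb went in different directions on the 2 arrays. Its processed signal was 353 in control and 388 in BIO in replicate 1, and 434 and 321 in replicate 2, so that control and BIO overlapped. Its ratios of 0.04 and -0.47 on the log2 scale averaged -0.21, with a 95% interval of -0.54 to 0.11 and an adjusted p of 0.319 by limma. The single spots lay between -0.02 and 0.09 in replicate 1 and between -0.53 and -0.38 in replicate 2, so the spots of one array lay close together and those of both arrays did not overlap. The interval of Frzb holds a decrease, no change and a small increase.

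Among the Dickkopf genes, Dkk1 was the member that was called. Its processed signal was 4386 in control and 3172 in BIO in replicate 1, and in replicate 2 it was 3925 and 2681. Both BIO values lay below both control values. The mean of the log2 ratios, -0.55 and -0.51, was -0.53 ± 0.108 (SE, n = 2), with a 95% interval of -0.78 to -0.28 and an adjusted p of 0.00988 by limma, or a 1.44-fold lower level. In replicate 1 this mean rests on 3 of 4 spots, since 1 was an outlier. The intervals of Dkk1 and Sfrp1 did not overlap. The call of Dkk1 was lost when the processed signals replaced the background-corrected intensities (adjusted p = 0.0636), when the arrays were centered on their median without loess (0.0726) and with the deposited scores (0.101), while its log2 ratio stayed between -0.55 and -0.51 under every alternative run.

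Dkk2 resembled Frzb in its disagreement between the arrays. Its processed signal was 4078 in control and 5111 in BIO in replicate 1, and 4408 and 3842 in replicate 2. All 4 spots were above 0 in replicate 1, from 0.19 to 0.34 on the log2 scale, and all 4 were below 0 in replicate 2, from -0.35 to -0.18. The mean log2 ratio was 0.02 with a 95% interval of -0.30 to 0.35 and an adjusted p of 0.926 by limma. Dkk3 had a processed signal of 10092 in control and 10792 in BIO in replicate 1, and 10942 and 12612 in replicate 2, and the groups overlapped. Its mean log2 ratio was 0.12 with a 95% interval of -0.13 to 0.38 and an adjusted p of 0.481, so the interval reached further above 0 than below it.

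Dkk4 was not measured above background. In each channel of each array, 0 of its 4 spots were well above background, and its processed signal lay at or under the floor of 15 that was set for all probes. No fold change can be given for it.

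Wif1 was the member that rose. Its processed signal was 1555 in control and 3369 in BIO in replicate 1, and 1664 and 2324 in replicate 2. Both BIO values lay above both control values. The log2 ratios of 1.06 and 0.46 gave a mean of 0.76 ± 0.150 (SE, n = 2), with a 95% interval of 0.42 to 1.11 and an adjusted p of 0.00853 by limma, or a 1.70-fold higher level. Wif1 had place 460 of 21574 from the highest. The size of its increase differed between the arrays, with single spots from 1.00 to 1.12 in replicate 1 and from 0.41 to 0.52 in replicate 2. The call of Wif1 was lost with the processed signals (adjusted p = 0.0971) and with the deposited scores (0.300), and its log2 ratio was between 0.46 and 1.06 under the alternatives run.

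**Figure D2:**
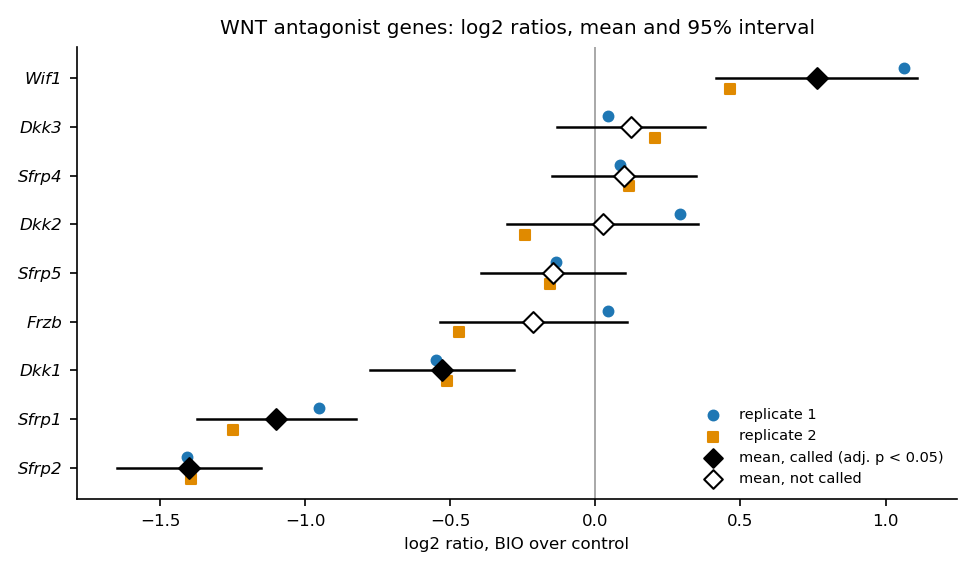
Log2 ratio of BIO over control for the 9 tested antagonists, ordered by their mean, with replicate 1 as blue circles, replicate 2 as orange squares, means as diamonds (filled where the adjusted p was under 0.05) and 95% intervals from limma as bars. Sfrp2, Sfrp1 and Dkk1 had intervals below 0, Wif1 had an interval above 0, and the other 5 intervals held 0.

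The arrays differed most for Wif1, Dkk2 and Frzb. Their log2 ratios were 0.60, 0.54 and 0.51 higher in replicate 1 than in replicate 2, whereas the median size of this difference over all genes tested was 0.164. A larger difference was found for 4.01% of all genes tested in the case of Wif1, 5.71% for Dkk2 and 6.55% for Frzb. Sfrp1 differed by 0.296, with 23.5% of genes above it. The remaining tested members, Dkk1, Dkk3, Sfrp2, Sfrp4 and Sfrp5, differed by 0.162 or less.

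**Figure D3:**
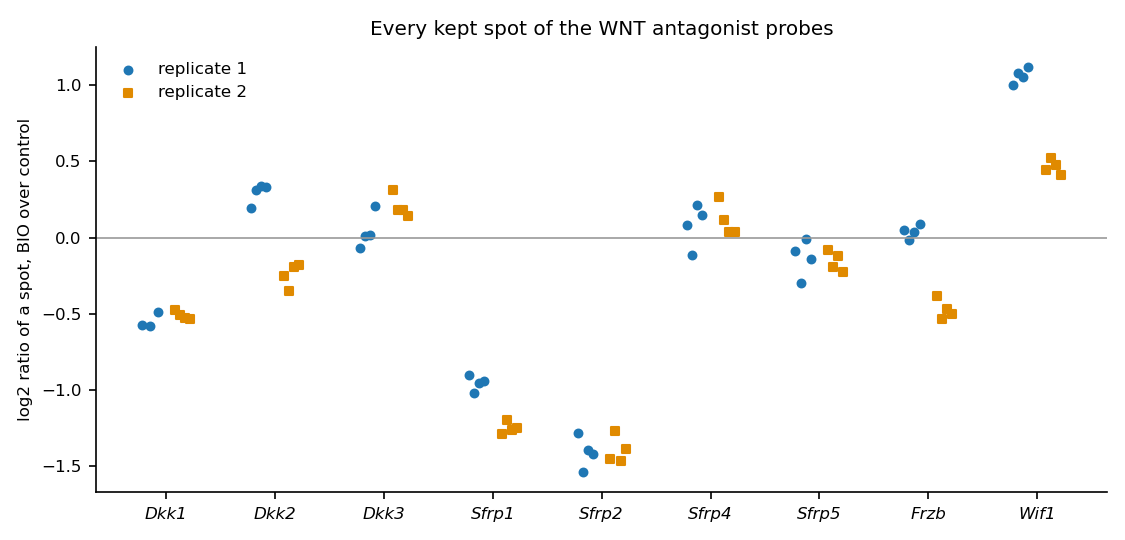
Log2 ratio of BIO over control for every spot kept of the 9 tested antagonist probes, with replicate 1 as blue circles and replicate 2 as orange squares. For Dkk2, Frzb, Wif1 and Sfrp1 the spots of replicate 1 lay wholly above those of replicate 2, and for Dkk1, Dkk3, Sfrp2, Sfrp4 and Sfrp5 the spots of both arrays overlapped.

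The study uses a rule of intensity and fold change for its other arrays, and it was applied to the processed signals here. To pass, a gene had to be higher, or lower, by 2-fold or more on each array and to reach a signal of 100 in its brighter channel each time. Over the whole array, 2.23% of 29875 genes passed, and among the 10 antagonists 1 did, Sfrp2, which was lower in BIO. Dkk4, Sfrp4 and Sfrp5 stayed under a signal of 100 in every channel and so could not pass. Dim genes are likewise counted among the 29875. Sfrp1 missed the rule on replicate 1, where its log2 ratio of processed signals was -0.94, and it passed on replicate 2 with -1.25. Wif1 passed on replicate 1 with 1.12 and missed it on replicate 2 with 0.48. The rule has no test.

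The promoters of 6 members, from 250 bases before to 50 after the start of the gene, were held in a RefSeq table of build GRCm38.p6. A pair of short motifs was searched on both strands, CTTTGAT, which is bound by the TCF/LEF factors of canonical WNT signaling, and GCGTG, the core bound by the aryl hydrocarbon receptor AHR, for which indirubins such as BIO are known ligands. CTTTGAT was in 0 of the 6 promoters, and in 3.73% of 32851 promoters of all genes. GCGTG was in 2 of the 6, at position -151 in Sfrp2 and -111 in Dkk2 relative to the start, and in 32.4% of all promoters. Below are the 250 bases upstream of the start for Sfrp2 and Dkk1, which were lower in BIO, and for Wif1, which was higher, with the GCGTG match in capitals. They lie at chr3:83766071-83766320 on the plus strand, chr19:30549497-30549746 on the minus strand and chr10:121033754-121034003 on the plus strand of GRCm38.p6.
Sfrp2: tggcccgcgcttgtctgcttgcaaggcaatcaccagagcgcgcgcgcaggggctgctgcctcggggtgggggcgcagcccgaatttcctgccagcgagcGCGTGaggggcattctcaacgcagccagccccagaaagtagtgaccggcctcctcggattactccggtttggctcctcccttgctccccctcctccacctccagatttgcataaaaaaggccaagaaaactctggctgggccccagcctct
Dkk1: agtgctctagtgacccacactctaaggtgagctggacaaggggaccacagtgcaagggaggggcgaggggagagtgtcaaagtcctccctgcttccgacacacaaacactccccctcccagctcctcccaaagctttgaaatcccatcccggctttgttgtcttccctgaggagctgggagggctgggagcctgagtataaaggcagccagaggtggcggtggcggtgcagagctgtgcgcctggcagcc
Wif1: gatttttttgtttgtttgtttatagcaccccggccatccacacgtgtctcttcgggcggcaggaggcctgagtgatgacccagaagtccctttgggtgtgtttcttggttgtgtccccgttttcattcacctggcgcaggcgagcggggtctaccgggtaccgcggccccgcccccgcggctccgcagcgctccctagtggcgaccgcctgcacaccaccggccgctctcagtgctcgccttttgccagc
A match is a run of letters and not a measured binding site, and only Sfrp2 of these 3 sequences holds one. Only the exact letters were searched. Near matches were not counted, such as ctttgaa in the Dkk1 sequence, which differs from CTTTGAT in its last letter.

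Transcripts of WNT receptors and co-receptors, only some of which encode proteins that the antagonists bind, were measured on the same arrays. Of 18 genes for Frizzled receptors, LRP co-receptors, Kremen proteins and other WNT receptors, all tested, 2 rose and 3 fell. Their median log2 ratio was 0.05. Fzd10, a WNT receptor, rose by 1.53 ± 0.109 (SE, n = 2), and Kremen2, a receptor for DKK proteins, rose by 1.17 ± 0.129. The processed signal of Kremen2 was 55.3 and 49.4 in control against 196 and 128 in BIO in replicates 1 and 2. Fzd4 fell by 1.18, Fzd6 by 0.87 and Fzd8 by 0.60 on the log2 scale. The co-receptors to which DKK1 binds were not called, with mean log2 ratios of 0.14 for Lrp5 and -0.20 for Lrp6, and neither was Kremen1 at 0.27.

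Of the WNT ligands, 14 of 19 were tested, 4 rose and 3 fell, and the median log2 ratio was -0.02. Wnt6 rose by 2.32, Wnt4 by 1.26 and Wnt10a by 0.82, while Wnt7b fell by 0.71, Wnt9a by 0.49 and Wnt11 by 0.45. Thus ligands moved in both directions, as the antagonists did.

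Other inhibitors that act at the cell surface or in the endoplasmic reticulum were split evenly. Of 12 such genes, 9 were tested, 3 rose and 3 fell, with a median of 0.12. Notum, which removes the lipid from WNT proteins, rose by 1.08. Apcdd1, a membrane-bound WNT inhibitor, rose by 1.03, and Tpbg by 0.42. Shisa2 fell by 1.98 and Shisa3 fell by 1.88, 2 genes whose proteins hold back Frizzled receptors during their maturation, and Igfbp4, a secreted protein that can bind LRP6, fell by 0.67.

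As a check on the treatment, 11 widely used target genes of canonical WNT signaling were examined, all tested. Of these, 8 rose and 1 fell, with a median log2 ratio of 1.07. The highest were Sp5 at 2.80, Axin2 at 2.15 and Lgr5 at 2.09, and Myc fell by 0.95. Dkk1 is itself often listed as a target of the pathway and was lower in BIO here.

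**Figure D4:**
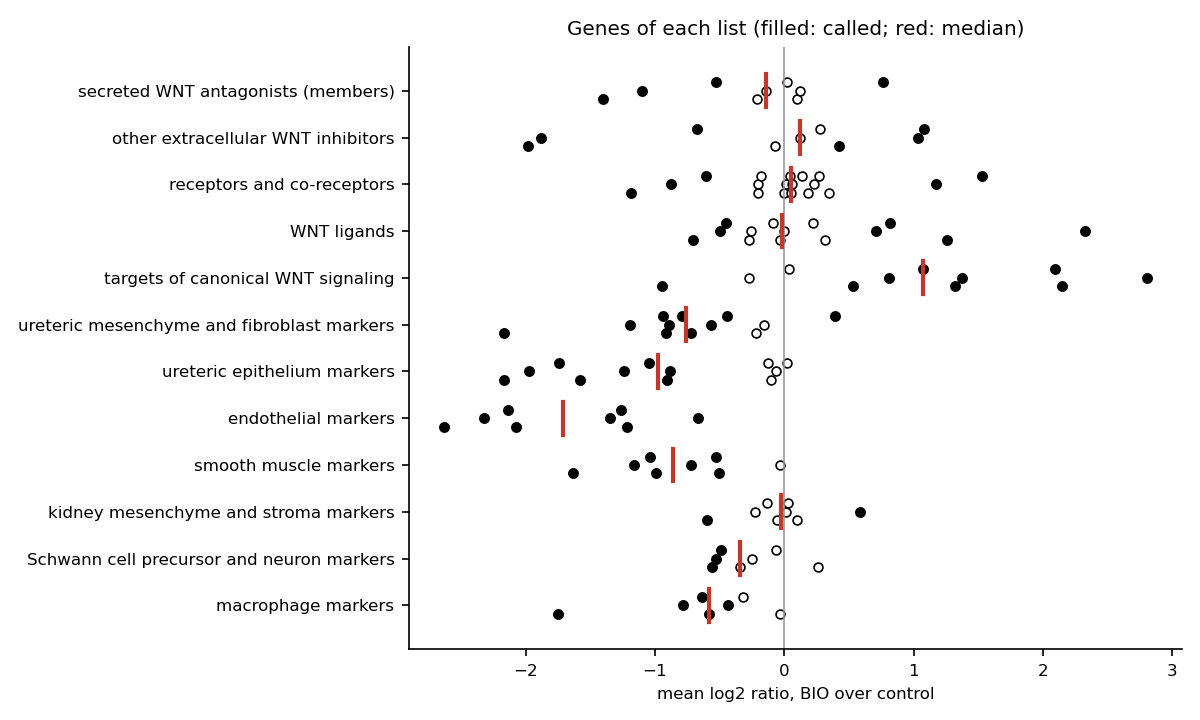
Mean log2 ratio of BIO over control for each tested gene of the antagonists, of other WNT pathway lists and of cell type marker lists, filled where the adjusted p was under 0.05, with medians as red bars. The antagonists lay on both sides of 0 with a median of -0.15, the WNT targets had a median of 1.07, and the endothelial markers had the lowest median, -1.71.

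Markers of the cell types in the ureter were set beside these values. Of 12 markers of ureteric mesenchyme and fibroblasts, 1 rose and 9 fell, with a median log2 ratio of -0.76. Their summed processed signal was 315360 and 345120 in control and 194430 and 214300 in BIO. Most of this sum came from Col1a1, Col1a2, Col3a1 and Vim, with 51441 to 70916 each in control of replicate 1. The highest mean was that of Prrx1, which rose by 0.39, and the lowest were Pdgfrb, which fell by 2.17, Twist1 by 1.19 and Osr1 by 0.94. Tbx18, a defining factor of this tissue, had a ratio of -0.22 and was not called. Of the 12 markers, 9 thus moved in the same direction as Sfrp2, Sfrp1 and Dkk1, and their part in these results was not tested.

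Of 12 markers of ureteric epithelium, 8 fell and the other 4 were not called, with a median of -0.98. Their summed signal was 102460 and 104470 in control and 55687 and 67140 in BIO, and Upk1b was at the floor of 15 in BIO on both arrays. Epcam and Gata3 were not called, at 0.02 and -0.10. All 8 endothelial markers fell, with a median of -1.71, their sum was 24278 and 28994 in control against 4489 and 8348 in BIO, and Erg was at the floor in BIO. Of 8 smooth muscle markers 7 fell, with a median of -0.86 and sums of 18354 and 19507 against 8831 and 9955. Markers of macrophages (5 of 7 fell, median -0.58, sums of 5302 and 6053 against 3165 and 4685) and of Schwann cell precursors and neurons (3 of 7 fell, median -0.35, sums of 34012 and 37335 against 25053 and 34277) were lower in part. Of 8 markers of kidney mesenchyme and stroma, 1 rose and 1 fell, with a median of -0.02 and sums of 28079 and 29592 in control against 25263 and 26312 in BIO. The part of these cell types in the antagonist values was not tested.

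Across the array, between 70.1% and 80.9% of biological spots were well above background in a channel, and 0 spots were saturated. The 9 tested antagonists were well above background with every spot kept, in both channels of both arrays.

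**Figure D5:**
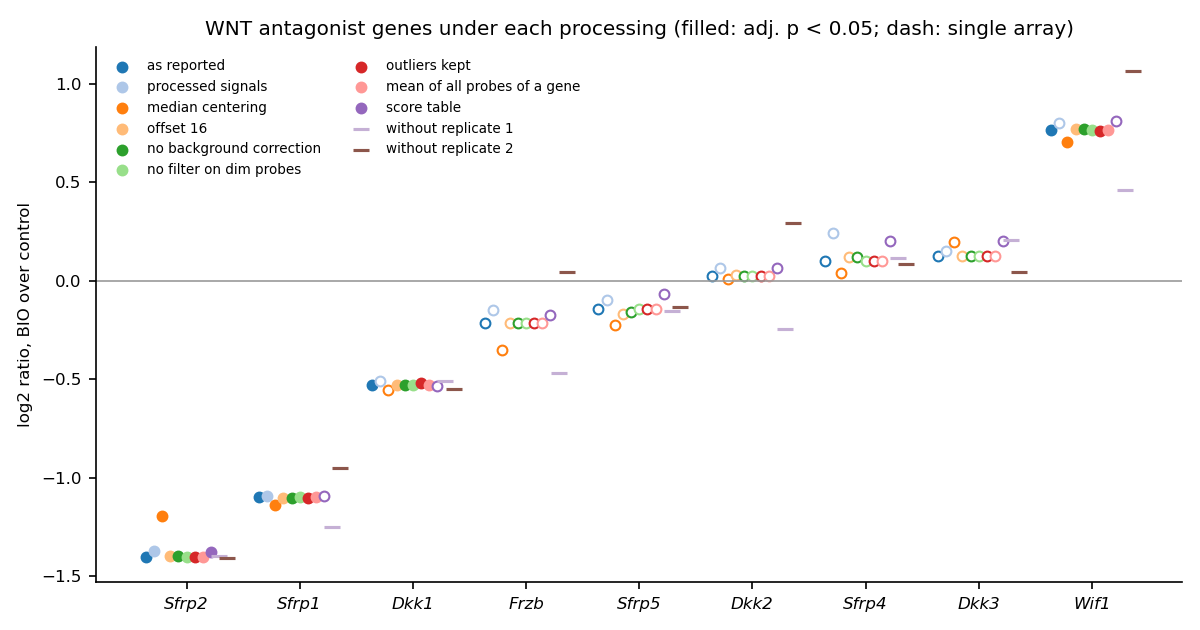
Log2 ratio of BIO over control for the 9 tested antagonists as reported and under each alternative processing, filled where the adjusted p was under 0.05, open where it was not, and with dashes for values of a single array. Sfrp2 was called under every alternative with a test, and Dkk1, Sfrp1 and Wif1 lost their call under some.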

How the data were processed

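RNA of BIO and control explants had been labelled with 2 dyes and hybridised to 2 Agilent arrays with exchanged dyes. The authors quantified the scans with Agilent Feature Extraction 10.7.3.1. Its deposited tables give mean and background intensities without correction, and processed signal intensities that were background-subtracted and dye-normalized. A further deposited table holds 1 score per probe and array by a method not given in the sources used here. Comparison with the scanner tables showed the scores to be signed fold changes, positive where BIO was higher, of unknown exact centering. Their values look coarsely rounded. In limma 3.58.1 (R 4.3.3), intensities were corrected by normexp with an offset of 50 and normalized within each array by loess, with control and outlier spots at weight 0 and then left out. The 4 spots of a probe were averaged. Probes well above background in more than a share of 0.5 of their spots, in control on both arrays or in BIO on both, were tested (28824). The dye-swapped ratios were turned and compared with 0 in a two-sided test (lmFit, eBayes), and p-values were adjusted by Benjamini-Hochberg. No dye term was fitted, as no residual degree of freedom would remain. With 2 arrays their number limits the precision (median SE of a log2 ratio, 0.111). The eBayes step weighed the variance of a probe with a prior over all probes (prior SD 0.162, 7.14 degrees of freedom). Printed SEs, intervals and p-values are these moderated ones. For other genes, the brightest probe stood for the gene. Further probes of a listed gene differed from it in their call for Nkd2, Wnt16 and Csf1r, and none was called in the opposite direction. Of 39429 probes, 28328 were named through an accession, 3400 by symbol and 243 by synonym in a RefSeq table of GRCm38.p6, and 7458 kept the name in the file. Processed signals were raised to a floor of 15. Of each other list, up to 3 of the highest and 3 of the lowest genes are named where called, and a few further genes because the antagonists bind their products or they define a tissue. The members and lists were chosen with earlier results of these data known. The fitting code was tested on simulated data. Alternatives were processed signals, median centering, another offset, no background correction, no filter, kept outliers, the mean over probes, the score table and 1 array at a time.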

Additional observations from a re-analysis of the deposited data

How the results depend on the processing

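Of the 72 tests of an antagonist gene under an alternative, 66 kept their direction and their side of the threshold, 6 kept the direction but lost the call, and 0 reversed. Leaving out the filter and averaging over probes could not reverse a ratio, since each member has 1 probe and its ratio stays the same. Under these settings only the adjusted p can change. Sfrp2 kept its call in all 8 alternatives with a test, with log2 ratios from -1.41 to -1.19 over these and the single arrays. With the processed signals, 2 antagonists were called in place of 4, Sfrp1 and Sfrp2, and 0 rose (Wif1 had an adjusted p of 0.0971 by limma). Median centering left 3, without Dkk1. The deposited scores gave 1 called antagonist, Sfrp2, so that 0 rose and 1 fell, and Sfrp1 had an adjusted p of 0.160. The scores look coarsely rounded: with them Dkk3 and Sfrp4 had the same mean log2 ratio, 0.200269, against 0.123 and 0.099 as reported. Such rounding alters the spread between the arrays on which the test rests. A call lost with the scores therefore need not mean a smaller ratio. The cause of these losses was not tested. Over all genes, the processed signals called 1923, median centering 2766 and the scores 3248, against 5154. The median of all genes stayed between -0.04 and 0.03 on the log2 scale under the 8 alternatives with a test.

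Under the intensity and fold-change rule, a minimum of 1.5-fold let 2 antagonists pass, Sfrp1 and Sfrp2, and a minimum of 3-fold let 0 pass, against 1 at 2-fold. Of all 29875 genes, 1775 passed at 1.5-fold and 195 at 3-fold, against 665 at 2-fold. Each single array let 2 pass, without replicate 1 Sfrp1 and Sfrp2, and without replicate 2 Sfrp2 and Wif1. Of all genes, 890 passed without replicate 1 and 1041 without replicate 2. The log2 ratios of Dkk2 and Frzb change sign with the array: without replicate 1 they were -0.24 and -0.47, and without replicate 2 they were 0.29 and 0.04, and neither was called in any alternative.

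Calls in the other lists fell most with the score table: from 6 to 1 for other inhibitors, 7 to 2 for WNT ligands, 9 to 3 for WNT targets, 10 to 0 for mesenchymal, 8 to 1 for epithelial, 8 to 2 for endothelial, 7 to 2 for smooth muscle and 5 to 1 for macrophage markers. With the processed signals 4 ligands, 6 mesenchymal and 2 macrophage markers were called, and median centering left 5 mesenchymal markers. Kidney markers dropped from 2 to 0 with the processed signals and with the scores, and to 1 with an offset of 16, without the filter and with median centering. Schwann cell precursor and neuron markers dropped from 3 to 0 with the processed signals, median centering and the scores. Each ratio already pairs the control and BIO RNA of 1 array, so no further pairing was fitted. Only 2 arrays limit all of these values.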
